A study of Mus musculus with 18 samples.

Results

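The nuclear genes of the respiratory chain were followed in mouse hearts that had been stored cold and then reperfused. Members were all protein-coding genes whose symbol begins with Nduf and a subunit letter and number, is 1 of Sdha, Sdhb, Sdhc and Sdhd, or begins with Uqcr, Cox4 to Cox8 or Atp5. Assembly factors and pseudogenes were left out. The rule found 85 of the 34989 genes in the files, of which 37 were named for complex I, 4 for complex II, 8 for complex III, 18 for complex IV and 18 for complex V. They carry 84 symbols, since a second gene of GENCODE M21 that is also called Atp5o overlaps the first. The rule goes by symbol, so that it missed subunit genes with names of another form, Ndufab1 among them. It took in Ndufa4, whose protein is now assigned to complex IV, Cox7a2l, a factor of supercomplex assembly, and Atp5s, a coupling factor.

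The 18 libraries came from the left ventricle (LV) and right ventricle (RV) of C57B/L6 mice, labelled as 12 weeks old. The study's methods give a younger age. Hearts were flushed with the preservation solution HTK, kept in ice-cold HTK for 0, 4 or 8 h, and perfused warm with Krebs buffer for 60 min before the ventricles were frozen. Each ventricle and storage time gave 3 libraries. The 0 h hearts had been flushed, explanted and perfused like the others, so that each comparison with 0 h is one of storage time and not of storage with reperfusion against an untouched heart. The tissue was whole ventricle in an isolated heart without circulating blood, and none of the libraries holds a single cell type.

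Oxidative phosphorylation takes electrons from NADH at complex I and from succinate at complex II, passes them through ubiquinone to complex III and through cytochrome c to complex IV, which reduces oxygen. Complexes I, III and IV pump protons, and complex V, the ATP synthase, lets them flow back to make ATP. Cardiomyocytes are densely packed with mitochondria, and the heart covers nearly all of its ATP need this way. Most subunits are encoded in the nucleus and imported, and the rest are encoded in the mitochondrial genome. Complex II has no mitochondrially encoded subunit.

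The libraries held 22552581 to 46236771 estimated counts, of which the members took 2.35% to 4.14% and the genes of the mitochondrial genome 22.7% to 34.4%. All 10 cardiomyocyte markers were well expressed, with means from 1216 to 30367 CPM (counts scaled to library size). The third RV library at 8 h stood apart. Its summed cardiomyocyte markers came to 37251 CPM against 55093 to 81974 CPM in the other 17 libraries, and its summed members to 25036 CPM against 30775 to 41444 CPM. Transcripts annotated as retained introns made up 1.71% of its member counts and 0.51% to 1.04% of those of the others. The main results for RV at 8 h are given with and without this library. In whole tissue fewer cells of a type and less RNA per cell cannot be told apart.

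Many nuclear respiratory genes are known targets of the transcription factors NRF-1, GABP and YY1. RefSeq promoter windows of 300 bases, 250 before and 50 after the start on GRCm38.p6, were at hand for 67 of the members tested and 11107 other tested protein-coding genes. The NRF-1 type motif, read here as GCGCA, any base and then GCGC on either strand, stood in 17 of 67 member windows (25.4%) and in 10.4% of the other genes. Its palindromic form, GCGCA followed by its own reverse complement and so contained in the former, stood in 5 member windows (7.46%) against 2.08%, the YY1 type letters AAGATGGC in 10 (14.9%) against 4.75%, and the ETS type letters CCGGAAG, bound by GABP, in 16 (23.9%) against 18.2%. Genes with more than 1 start counted once if any window held the letters. The mean GC content was 57.5% in member windows and 60.1% in the others. These are matches of letters and not sites of binding. Windows are shown for 4 members to give the range from several matches to none, with matches to the NRF-1, ETS or YY1 type motif on either strand in capitals.
Sdha, complex II, chr13:74350191-74350490, minus strand: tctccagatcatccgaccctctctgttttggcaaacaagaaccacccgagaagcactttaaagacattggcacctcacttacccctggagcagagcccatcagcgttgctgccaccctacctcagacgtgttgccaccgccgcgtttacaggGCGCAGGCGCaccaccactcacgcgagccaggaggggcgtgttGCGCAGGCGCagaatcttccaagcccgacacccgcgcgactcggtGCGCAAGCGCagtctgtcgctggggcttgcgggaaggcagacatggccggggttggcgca
Cox6a1, complex IV, chr5:115348909-115349208, minus strand: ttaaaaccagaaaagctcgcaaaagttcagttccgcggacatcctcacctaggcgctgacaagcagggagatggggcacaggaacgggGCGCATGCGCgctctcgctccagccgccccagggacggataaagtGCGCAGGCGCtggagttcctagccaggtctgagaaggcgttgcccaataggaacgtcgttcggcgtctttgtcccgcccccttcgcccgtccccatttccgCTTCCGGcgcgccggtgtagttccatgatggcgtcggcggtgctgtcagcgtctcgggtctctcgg
Ndufs6, complex I, chr13:73328433-73328732, minus strand: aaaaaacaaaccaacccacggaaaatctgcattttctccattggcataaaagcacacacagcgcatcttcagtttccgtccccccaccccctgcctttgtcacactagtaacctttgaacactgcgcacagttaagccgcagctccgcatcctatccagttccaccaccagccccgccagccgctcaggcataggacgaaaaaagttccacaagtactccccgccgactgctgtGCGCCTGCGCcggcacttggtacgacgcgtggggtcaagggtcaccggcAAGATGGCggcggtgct
Cox8b, complex IV, chr7:140900397-140900696, minus strand: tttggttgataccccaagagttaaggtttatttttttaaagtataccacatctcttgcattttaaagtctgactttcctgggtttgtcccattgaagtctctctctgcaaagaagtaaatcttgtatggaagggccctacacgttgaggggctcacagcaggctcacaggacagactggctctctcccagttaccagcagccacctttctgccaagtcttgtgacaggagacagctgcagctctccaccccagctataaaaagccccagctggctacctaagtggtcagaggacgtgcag
The Sdha window held 3 NRF-1 type matches, that of Cox6a1 2 NRF-1 type matches and 1 ETS type match, and that of Ndufs6 1 NRF-1 type match upstream and 1 YY1 type match just after the start. The window of Cox8b, the muscle form of its subunit, held none. At 8 h the median log2 fold change was 0.06 for the 17 members with the NRF-1 type motif and 0.13 for the 50 without it in LV, and -0.14 and -0.13 in RV with all 3 libraries, a split that was not tested.

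The members are among the most abundant nuclear transcripts of the heart. On the TPM scale, transcript abundance corrected for length, which allows levels of different genes to be compared per length, they took 4.77% to 7.75% of each library. A mean over 18 libraries above 1000 TPM was found for 21 members, and 8 members had a mean under 25 TPM. The highest was Atp5b, the catalytic beta subunit of complex V, with a mean of 3541 TPM and a range of 2577 to 4560. In complex IV Cox7a1 led with 2357 TPM, in complex III Uqcrq with 1339 TPM, and in complex II Sdhb with 644 TPM. Of the members named for complex I, Ndufa4 led with 1422 TPM. The lowest members of complexes II and III were still at 306 TPM (Sdhd, a membrane anchor) and 419 TPM (Uqcrc1, a core protein). Complexes I, IV and V also had members at the low end. Ndufa4l2 averaged 12.8 TPM and Atp5s 16.3 TPM, Cox8c, a testis isoform, had no count in any library, Cox7b2 averaged 0.151 TPM, and the second Atp5o gene 0.028 TPM. These last 3 were too low to test, which left 82 members in every fit.

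The isoform pairs showed the makeup of adult heart muscle in every library. Cox6a2, the heart and muscle form, made up 91.3% to 94.8% of the summed TPM of Cox6a1 and Cox6a2. Cox7a1 made up 80.0% to 85.0% of Cox7a1 and Cox7a2, and Cox8b 88.1% to 91.2% of the Cox8 genes. Cox7a2l was at 149 to 243 TPM, below Cox7a2 at 396 to 575 TPM. Cox4i2, known from lung and oxygen-sensing cells, gave 0.27% to 0.62% of Cox4i1 and Cox4i2, and Cox7b2 at most 0.10% of Cox7b and Cox7b2. Of the 3 genes for the same subunit c of complex V, Atp5g1 gave 46.7% to 55.4% and Atp5g3 43.8% to 53.0%, while Atp5g2 gave 0.32% to 0.82%. In RV the Cox6a2 share was 93.9% ± 0.87 (SD, n = 3) at 4 h and 92.9% ± 1.44 at 8 h, and the Cox7a1 share 83.5% ± 1.18 at 0 h and 82.1% ± 2.03 at 8 h. Within each ventricle the storage groups differed in the Cox6a2 and Cox7a1 shares by less than the larger of their SDs.

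**Figure D1:**
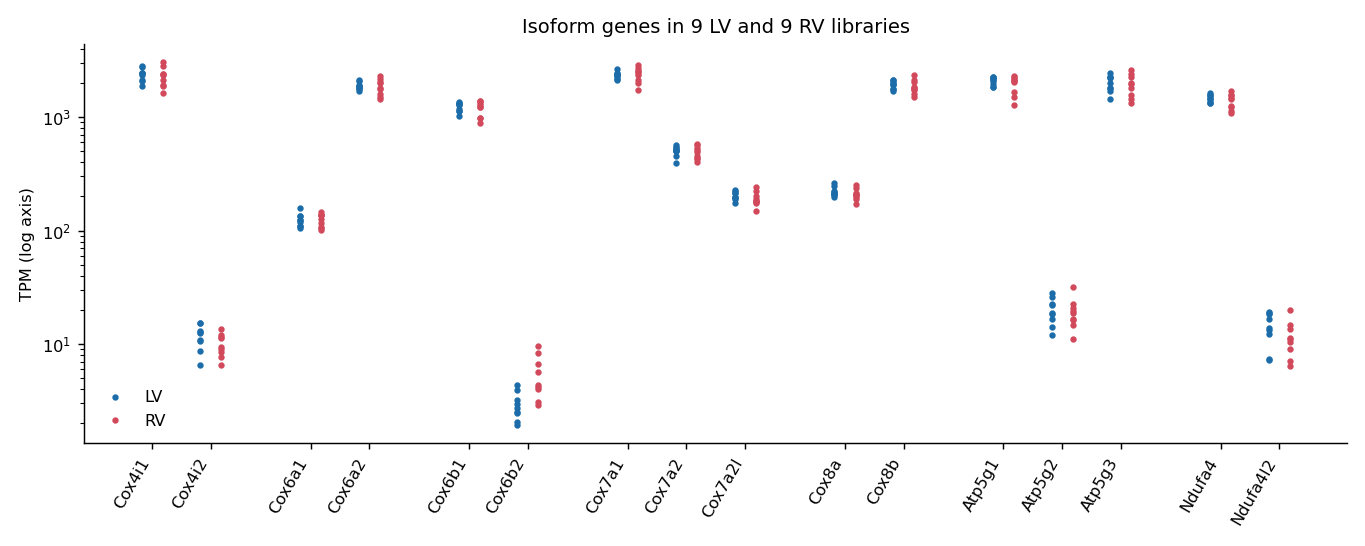
TPM (log axis) of the isoform genes in each of the 9 LV (blue) and 9 RV (red) libraries, 1 point a library. Cox6a2, Cox7a1 and Cox8b lie above their partners in every library, and Cox4i2, Cox6b2, Atp5g2 and Ndufa4l2 stay at or under 31.7 TPM.

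The first question was whether storage changed these genes. Log2 fold changes came from edgeR with the 9 libraries of a ventricle, and a gene passed at a Benjamini-Hochberg adjusted p under 0.1 over all genes. At 4 h no member passed in LV (2.24% of the 14564 genes tested were higher and 0.46% lower) or in RV (6.39% of 14622 genes higher and 4.27% lower). An unadjusted p under 0.05 was found for 0 members in LV and for 1 in RV, and DESeq2 passed none. The median log2 fold change of the members at 4 h was 0.07 in LV and 0.08 in RV, against medians of -0.0044 and 0.0034 over all genes tested. The member with the lowest unadjusted p was Ndufa4l2 in RV, a paralog of Ndufa4 known from pericytes and hypoxic cells. Its levels were 8.27, 7.18 and 12.5 CPM at 0 h and 6.81, 5.72 and 3.57 CPM at 4 h, and the groups did not overlap. Its log2 fold change was -0.78 (standard error 0.29, edgeR adjusted p = 0.151). Of the 8 pericyte markers, 4 passed as lower in the same comparison and the median of the list was -0.68 on the log2 scale. The part of these cells in the Ndufa4l2 value was not tested.

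At 8 h 1 member passed in LV, where 5.4% of all genes were higher and 2.25% lower, and 0 in RV, where 13.7% were higher and 7.21% lower. Without adjustment, 6 members in LV were higher and 7 lower at a p under 0.05 (13.4% and 9.64% of all genes), and DESeq2 passed 1 as higher and 5 as lower (6.19% and 3.56% of 22845 genes). In RV no member had an unadjusted p under 0.05 (17.9% of all genes were higher and 12.8% lower), and DESeq2 passed none. In LV 58 of 82 members had a positive log2 fold change, with a median of 0.12 (all genes -0.02), and in RV 23 of 82, with a median of -0.14 (all genes -0.07). The 95% confidence interval lay within a 1.5-fold change in either direction for 50 members in LV and for 34 in RV. For the rest the intervals reached beyond that size. All 3 libraries at 8 h lay above all at 0 h for 12 members in LV and below them for 9, when 15.5% and 13.1% of all genes did so, and in RV the counts were 0 and 5 (18.5% and 17.0% of all genes). Between 4 h and 8 h no member passed in LV or RV and no gene at all passed (0.0%). There, 8 members in each ventricle had an unadjusted p under 0.05, all lower at 8 h, when 5.01% of all genes were lower in LV and 2.24% in RV. DESeq2 passed 2 as lower in LV (0.508% of all genes), Ndufs1 and Uqcrc2, and none in RV. The comparisons of 4 h and 8 h share their 0 h libraries, and LV and RV libraries that share a number deviated together.

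The member that passed was Ndufs1 (ENSMUSG00000025968.16; chromosome 1 of GRCm38, 63143596 to 63176833), the largest core subunit of complex I, which carries iron-sulfur clusters. In LV it was at 737, 639.5 and 597.5 CPM at 0 h, 631, 588.5 and 627 CPM at 4 h, and 392.5, 515.5 and 290.2 CPM at 8 h. All 3 LV libraries at 8 h lay below every library at 0 h and 4 h. The log2 fold change at 8 h was -0.72 (standard error 0.19, edgeR adjusted p = 0.0741). In RV its levels were 731, 652 and 505 CPM at 0 h and 441, 599 and 125 CPM at 8 h, so that the groups overlapped through the second library. The log2 fold change there was -0.70 (standard error 0.44, adjusted p = 0.290), and -0.27 (0.20, 0.480) without the third library at 8 h. In LV the call was lost in 7 of the 9 fits that left out 1 library, with adjusted p between 0.106 and 0.231. It held without the third 4 h library (0.0834) and without the second 8 h library (0.0221).

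**Figure D2:**
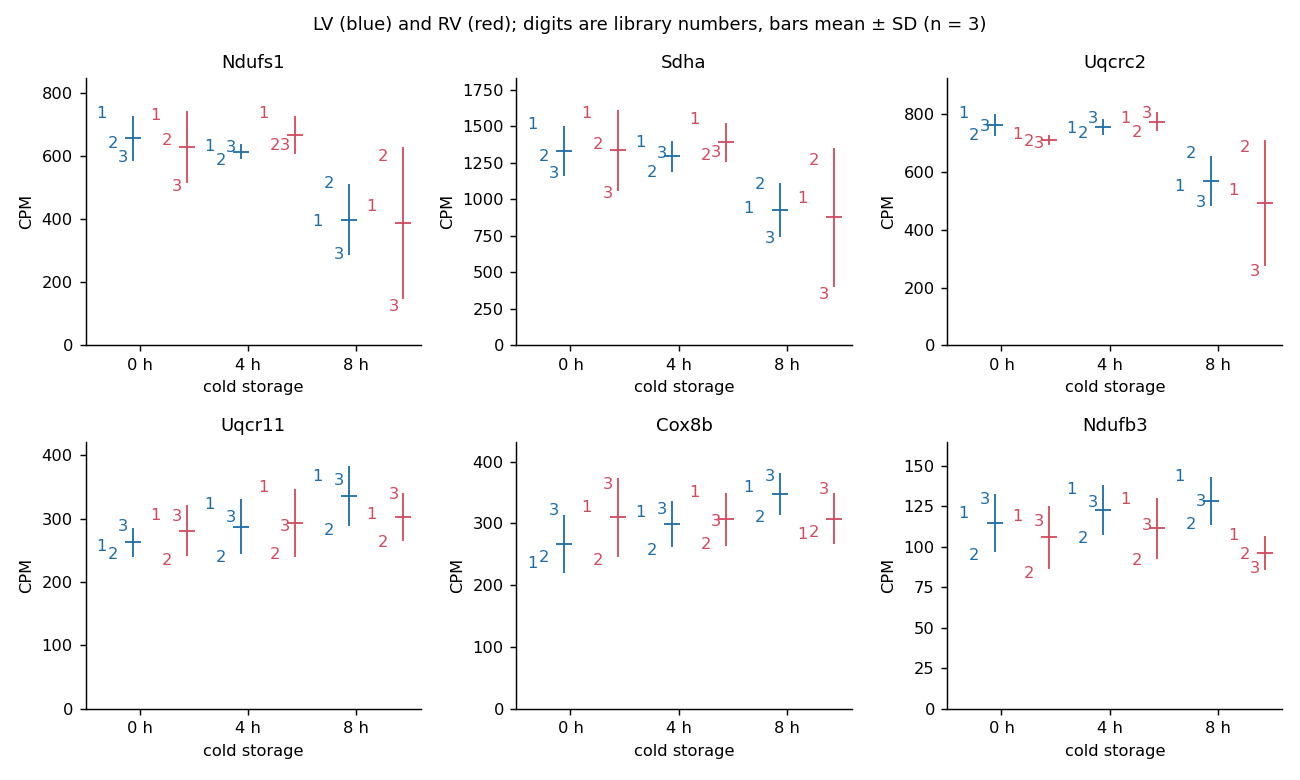
CPM of 6 members by storage time in LV (blue) and RV (red), with the library number printed at each value and the mean ± SD (n = 3) as bars. Ndufs1, Sdha and Uqcrc2 are lowest in the third library of each ventricle at 8 h, while Uqcr11 and Cox8b are not, and Ndufb3 at 8 h is higher in all LV than in all RV libraries.

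Although single members seldom passed, the members were ordered by the length of their transcripts. The length used was that of the transcript with the highest mean TPM for each gene. Across the 82 members the log2 fold change at 8 h had a Spearman correlation with that length of -0.75 in LV and -0.74 in RV. This is a description across genes, which share libraries and are not independent replicates. Over all tested protein-coding genes the same value was -0.21 in LV (13968 genes) and -0.04 in RV (14023 genes), and over the 1233 above 100 CPM it was -0.31 and -0.12. Within complex I it was -0.64 in LV and -0.68 in RV (37 genes), within complex V -0.87 in both (17 genes), and within complex IV -0.51 and -0.28 (16 genes). At 4 h it was -0.62 in LV and -0.10 in RV. The LV value at 4 h was -0.12 without the first 0 h library, and the RV value turned to 0.23 without the second 0 h library. At 8 h the member changes also had Spearman correlations with expression level, of -0.39 in LV and -0.42 in RV. With the GC content of the transcript they were 0.33 and 0.24, and the part of each was not tested.

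For the 27 members with the shortest transcripts (315 to 568 bases) the median of these log2 fold changes was 0.27 in LV, and all 27 values were positive. The 27 with the longest (908 to 2900 bases) had a median of -0.14, with 19 of 27 values negative. In RV the medians were 0.01 and -0.36, and 25 of the 27 longest were negative. Without the third RV library at 8 h they were -0.05 and -0.19, with 24 of the 27 longest negative. Other protein-coding genes in the shorter range had medians of 0.19 in LV (398 genes) and 0.05 in RV. Those in the longer range had medians of 0.01 (6117 genes) and -0.10. Among other genes above 100 CPM, the medians in the shorter range were 0.44 in LV and 0.46 in RV (34 genes), and in the longer range -0.01 and -0.10 (514 genes). The members of middle length had medians of 0.09 in LV and -0.15 in RV, against 0.36 and 0.39 for 67 other genes above 100 CPM. A higher value of short transcripts was therefore found outside the respiratory chain too. Short, middle and long members all had lower medians than other abundant genes of their length in both ventricles, which was not tested.

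**Figure D3:**
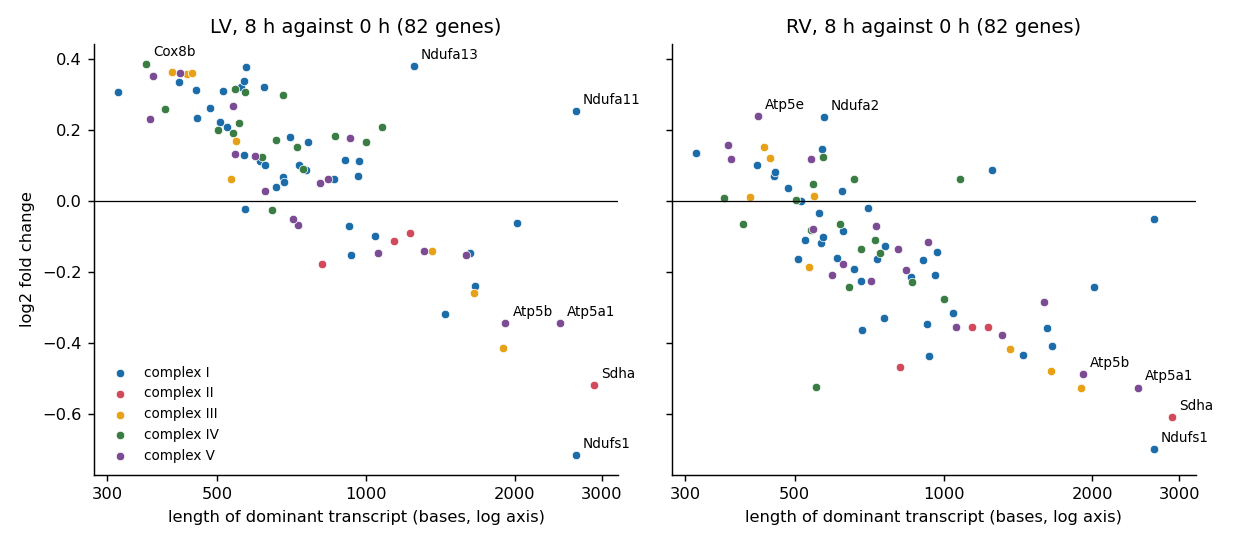
Log2 fold change at 8 h against 0 h (vertical axis) and length of the dominant transcript in bases (horizontal, log axis) for 82 members in LV and RV, coloured by complex. Values fall with length in both panels, with Spearman correlations of -0.75 and -0.74, and Ndufa13 is the highest of the 27 longest members in both.

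The order by length differed between libraries. The measure taken was the median log2 deviation of the long members from their means over all libraries minus that of the short members. In LV it was 0.31, 0.20 and 0.04 at 0 h, 0.05, 0.18 and 0.03 at 4 h, and -0.24, 0.00 and -0.43 at 8 h, and the 8 h libraries all lay below those at 0 h. In RV it was 0.13, 0.27 and -0.03 at 0 h, 0.06, 0.20 and 0.05 at 4 h, and -0.14, 0.11 and -0.80 at 8 h, so that the RV groups overlapped. The third library was the lowest and the second the highest of its group in both ventricles at 8 h. Without the third 8 h library the Spearman correlation was -0.63 in LV and -0.53 in RV. With length offsets in the fit, which correct for the effective length of each library, it was -0.66 in both. In the third 8 h libraries of LV and RV, processed transcripts without an open reading frame made up 3.69% and 5.86% of member counts, against 1.21% to 2.51% in the other 16 libraries. Transcripts marked for nonsense-mediated decay made up 2.59% and 2.95% there, against 1.79% to 2.30%. The part of these transcript classes in the order by length was not tested.

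**Figure D4:**
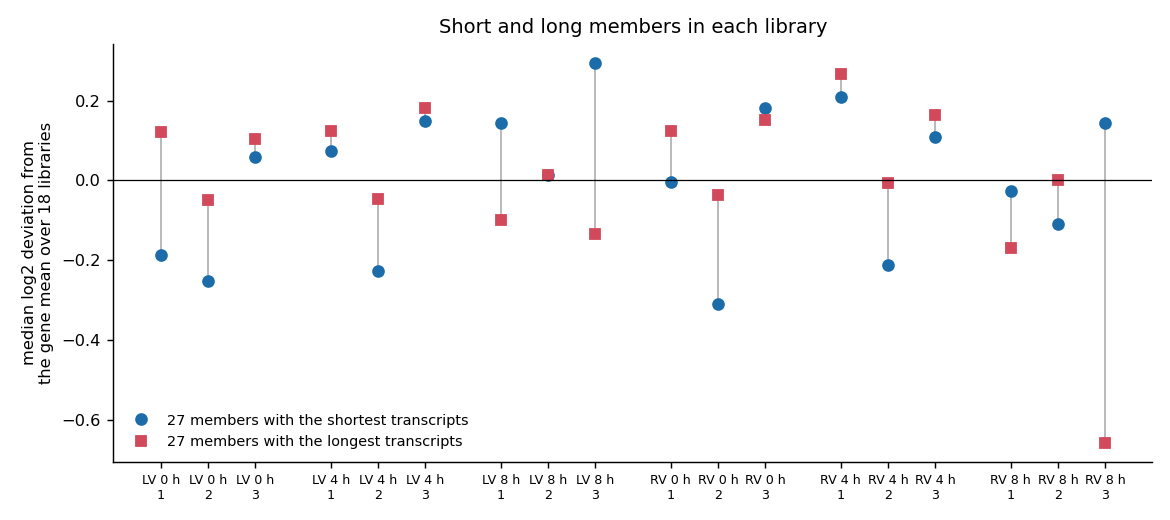
Median log2 deviation of the 27 members with the shortest (blue) and the 27 with the longest (red) transcripts from each gene's mean over 18 libraries, for every library. The longest members lie at or above the shortest in all LV libraries at 0 h and 4 h and reach -0.66 in the third RV library at 8 h.

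Complex I takes up electrons through 7 nuclear core subunits, which carry the flavin and the iron-sulfur clusters, while the 30 accessory subunits listed under its name surround them. At 8 h the core subunits had a median log2 fold change of -0.10 in LV, with 5 of 7 negative, and of -0.35 in RV, with all 7 negative. The accessory subunits had medians of 0.17 and -0.11. Without the third RV library at 8 h the RV medians were -0.20 for the core, again with all 7 negative, and -0.09 for the accessory subunits. Among the core, Ndufv1, which binds the flavin that accepts electrons from NADH, had values of -0.24 (standard error 0.12) in LV and -0.41 (0.23) in RV. Ndufs1 alone passed, as given above. Without the core subunits the Spearman correlation with length was -0.72 in LV and -0.71 in RV (75 genes), so that the order by length did not rest on them.

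Complex II oxidises succinate, a metabolite that builds up in ischaemic tissue. Its 4 genes had negative values at 8 h in both ventricles, with medians of -0.15 in LV and -0.41 in RV, and none passed. Sdha (ENSMUSG00000021577.14; chromosome 13 of GRCm38, 74322254 to 74350280), the flavoprotein that binds succinate, has the longest transcript of all members with 2900 bases. It was at 1514, 1292 and 1179 CPM in LV at 0 h and at 938, 1102 and 734 CPM at 8 h, and these groups did not overlap. Its log2 fold change was -0.52 (standard error 0.16, edgeR adjusted p = 0.113). In RV it was at 1588, 1377 and 1036 CPM at 0 h and at 1007, 1268.5 and 351 CPM at 8 h, with a log2 fold change of -0.61 (0.38, adjusted p = 0.294). Without the third library at 8 h it was -0.22 (0.21, 0.567), and the median of the 4 genes in RV was -0.21. The iron-sulfur subunit Sdhb had -0.11 (0.12) in LV and -0.36 (0.21) in RV. The anchors Sdhc and Sdhd had -0.18 (0.12) and -0.09 (0.12) in LV, and -0.47 (0.21) and -0.36 (0.25) in RV. At 4 h the 4 genes lay between -0.04 and 0.07 in both ventricles.

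Among the 8 complex III members, the 3 large subunits had negative and the 5 small ones positive values at 8 h in LV. The core protein Uqcrc2 was at 801, 726 and 756 CPM in LV at 0 h and at 549, 664 and 495 CPM at 8 h, without overlap, with a log2 fold change of -0.42 (standard error 0.13, adjusted p = 0.105). Its partner Uqcrc1 had -0.26 (0.11) and Uqcrfs1, the Rieske iron-sulfur protein, -0.14 (0.11). In RV the 3 values were -0.53, -0.48 and -0.42, and without the third library at 8 h -0.21, -0.26 and -0.17. The small subunits Uqcr10, Uqcr11 and Uqcrq each had 0.36 in LV (standard errors 0.17, 0.16 and 0.14), and 0.15, 0.12 and 0.01 in RV. The other two, Uqcrb and Uqcrh, had 0.06 (0.13) and 0.17 (0.16) in LV, and -0.19 (0.18) and 0.01 (0.21) in RV. Without the third RV library at 8 h, 7 of the 8 values in RV were negative. Uqcr11 was at 256, 244 and 287.5 CPM in LV at 0 h and at 366, 281 and 360.5 CPM at 8 h, where the second library of 8 h fell within the 0 h range.

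Complex IV has 16 tested members with transcripts of up to 1078 bases, and 15 of the 16 had a positive value at 8 h in LV (median 0.19), against 6 of 16 in RV (median -0.08). Without the third RV library at 8 h, 3 of 16 were positive (median -0.12). The largest in LV was that of Cox8b, with 234, 244 and 321 CPM at 0 h and 357.5, 309 and 376 CPM at 8 h, where 1 library of each group fell within the range of the other. Its log2 fold change was 0.39 (standard error 0.16, adjusted p = 0.186), and in RV it was 0.01 (0.22). The isoform partners had like values in LV, with 0.30 for Cox6a2 and 0.31 for Cox6a1, 0.26 for Cox7a1 and 0.17 for Cox7a2, and 0.31 for Cox8a. Cox4i1 had 0.09 in LV and -0.15 in RV, and Cox4i2 0.15 and -0.11.

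In complex V, the alpha and beta subunits that form the catalytic head, Atp5a1 and Atp5b, both had -0.35 in LV at 8 h (standard errors 0.13 and 0.12) and -0.53 and -0.49 in RV (0.28 and 0.25). Without the third library at 8 h, both had -0.24 in RV (0.16 and 0.15). Atp5b was at 4535, 4097 and 4297 CPM in LV at 0 h and at 3150, 3801 and 3195 CPM at 8 h, without overlap. Its adjusted p was 0.136 in LV and 0.211 in RV. The epsilon subunit Atp5e, with a transcript of 421 bases, had 0.36 (0.23) in LV and 0.24 (0.28) in RV. Atp5g1 and Atp5g3 had 0.13 and -0.05 in LV. The summed CPM of complex V at 8 h was 12803 ± 565 (SD, n = 3) in LV against 14306 ± 834 at 0 h, while that of complex IV was 6335 ± 444 against 5622 ± 493. In RV the sums were 11607 ± 2365 against 14808 ± 960 for complex V, and 5596 ± 77.5 against 6120 ± 859 for complex IV.

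**Figure D5:**
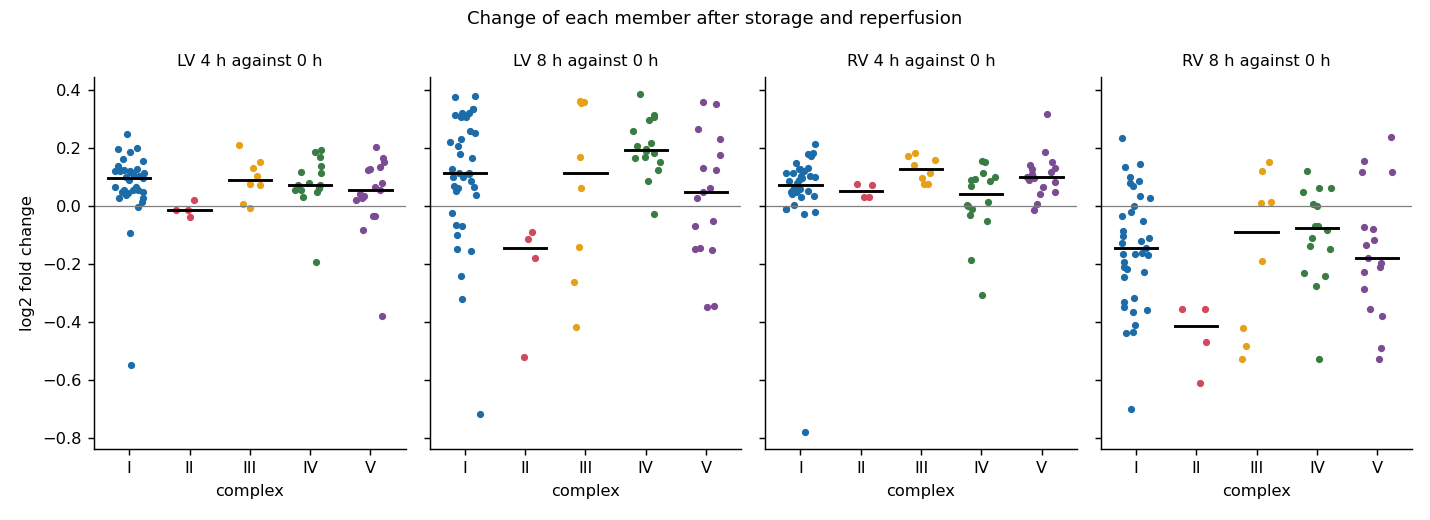
Log2 fold change of each of 82 members against 0 h, by complex, at 4 h and 8 h in LV and RV, with the median of each complex as a bar. At 4 h most points lie near 0, and at 8 h complex II lies below 0 in both ventricles while all but 1 member of complex IV lie above 0 in LV.

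Leaving out a library changed these counts. Without the second 8 h library 7 members passed as higher and 5 as lower in LV (10.4% and 6.67% of all genes), and in RV 12 passed as lower (17.2%) and none as higher. Without the third 8 h library 0 members passed in either ventricle, and the RV median was -0.13, with 14 of 82 values positive.

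Markers of cell types moved at 8 h as well. Summed cardiomyocyte markers in LV went from 74183 ± 6758 CPM (SD, n = 3) to 59799.9 ± 4542 CPM. The RV sums were 74498 ± 5035 CPM without storage and 54574 ± 15812 CPM after 8 h. Sums give the most abundant markers the most weight. The median log2 deviation of the 10 markers from each gene's mean over 18 libraries was therefore taken per library. For unstored LV it averaged 0.05 ± 0.15 (SD, n = 3), against 0.01 ± 0.12 for LV stored 8 h. The fall of the LV sum was thus not seen in the median marker. Unstored RV averaged 0.003 ± 0.15, against -0.26 ± 0.24 for RV stored 8 h. Of the 10 markers, 1 passed in LV, Myh6, the alpha myosin heavy chain, with a log2 fold change of -0.63 (standard error 0.13, adjusted p = 0.0330), and 0 in RV. The neutrophil markers that could be tested all passed as higher, 3 in LV and 1 in RV, with sums that went from 1.43 to 13.3 CPM and from 1.87 to 14.9 CPM. Of the 7 macrophage markers 3 passed as higher in RV and 0 in LV, and of the 7 fibroblast markers 1 and 0. Their part in the values of the members was not tested.

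The other comparison was between ventricles. Within a storage time, libraries with the same number shared much of their deviation from the group mean in LV and RV. Results are therefore given without and with each such LV and RV pair as a block. The labels do not say that a number names a heart. Without the block no member passed at 0 h, 4 h or 8 h, where 0.159%, 0.0133% and 0.0331% of 15093 genes did. An unadjusted p under 0.05 was found for 1 member at 0 h (Cox6b2), 0 at 4 h and 1 at 8 h (Ndufb3), and DESeq2 passed none. By the unadjusted rule 1.28% of all genes were higher and 1.90% lower in LV at 0 h. The shares were 1.44% and 1.46% at 4 h, and 4.33% and 6.65% at 8 h. With the block 1 member passed at 0 h and 1 at 4 h (4.09% and 5.42% of all genes), in both cases Cox6b2 (ENSMUSG00000051811.14; chromosome 7 of GRCm38, 4751792 to 4753094), an isoform known from testis. It was at 0.413, 0.81 and 1.06 CPM in LV and 1.02, 2.07 and 2.51 CPM in RV at 0 h, lower in LV in each pair. With the block its log2 difference came to -1.29 (standard error 0.22) with an edgeR adjusted p of 0.0108 at 0 h, and to -0.87 (0.23) with 0.0663 at 4 h. Its share of Cox6b1 and Cox6b2 was 0.23% ± 0.06 in LV and 0.56% ± 0.23 in RV at 0 h, so that the difference concerns a trace of the subunit.

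At 8 h 18 members passed with the block, all higher in LV, where 15.4% of all genes were higher in LV and 16.4% lower. Of the 18, 14 were named for complex I, Ndufa4 among them, as were 37 of the 82 members tested. Without the block 80 of 82 members had a positive value and the median was 0.18, against 0.0064 over all genes. Without the third RV library at 8 h 70 of 82 were positive and the median was 0.16, and the median of the 27 members with the longest transcripts went from 0.20 to 0.04. The libraries did not overlap for 21 members, again all higher in LV, while 5.16% of all genes were higher and 5.94% lower without overlap. The differences were small. Ndufb3 (ENSMUSG00000026032.8; chromosome 1 of GRCm38, 58586384 to 58595964), an accessory subunit of the membrane arm of complex I, was at 143, 114 and 128 CPM in LV and at 107, 95.2 and 86.4 CPM in RV at 8 h. The 0 h libraries stood at 120.5, 94.8 and 129 CPM in LV and at 119, 83.4 and 115.5 CPM in RV, with overlap. The log2 difference at 8 h was 0.42 (standard error 0.08, adjusted p = 0.0026 with the block and 0.406 without it).

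The next members in order of adjusted p were Ndufa6, an accessory subunit, with 0.31 (standard error 0.07, 0.0117), Ndufs7, a core subunit at the ubiquinone site, with 0.33 (0.10, 0.0278), Ndufs5 with 0.24 (0.07, 0.0366) and Ndufb4 with 0.25 (0.08, 0.0453). Ndufa4l2 had 0.39 (0.14, 0.0646), and leaving out single pairs with the block gave 0.25 to 0.56. Outside complex I, Cox5b with 0.28 (0.09, 0.0516), Cox7b with 0.27 (0.10), Atp5g1 with 0.29 (0.10) and Uqcrb with 0.23 (0.09) passed. Without the 8 h pair numbered 1, 2 or 3, respectively 7, 34 and 15 members passed as higher in LV, where 8.11%, 16.8% and 12.5% of all genes did. With the block and all pairs, 5 of 10 cardiomyocyte markers passed as higher in LV at 8 h, where 15.4% of all genes did. In the third pair, summed cardiomyocyte markers were 55093 CPM in LV and 37251 CPM in RV. In the first and second pairs the sums were 60150 and 64157 CPM in LV and 58240 and 68230 CPM in RV. Summed members were 32697, 33692 and 33731 CPM in LV and 30775, 33323 and 25036 CPM in RV. What the cell makeup contributed was not tested.

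The change from 0 h to 8 h was also compared between ventricles directly. The LV change minus the RV change had a median of 0.25 over the members (0.03 over all genes), and 81 of 82 values were positive. Without the third RV library at 8 h the median was 0.23, and 73 of 82 were positive. Without the block no member and no gene passed (0.0%), and DESeq2 passed no member. No member had an unadjusted p under 0.05, when 1.27% of all genes had a greater value in LV and 2.87% in RV. With it 7 members passed, all with the greater value in LV, where 3.52% of all genes did so and 7.93% had the greater value in RV. They were Ndufa6, Ndufa7, Ndufc2, Ndufs5, Ndufs7, Cox5b and Cox7b, with differences from 0.32 (Ndufs5) to 0.45 (Ndufc2). Ndufs7 was at 263, 236 and 280.5 CPM in LV at 0 h and 300.4, 258 and 268 CPM at 8 h, and at 286, 240.1 and 313 CPM in RV at 0 h and 245.5, 235.5 and 182 CPM at 8 h. Each RV library at 8 h lay below the 0 h library of its number, but the groups overlapped in both ventricles. Without the 0 h pair numbered 1, 2 or 3, respectively 0, 5 and 0 members passed (0.587%, 1.28% and 0.816% of all genes), and without the 8 h pairs 0, 11 and 12 (1.0%, 5.95% and 5.28%), so that the 7 calls were lost without 0 h pair 1, 0 h pair 3 or 8 h pair 1. At 4 h no member passed with or without the block (0.0% of genes without it and 0.384% with it), and DESeq2 passed none. None had an unadjusted p under 0.05, when 0.61% of all genes had a greater value in LV and 0.40% in RV.

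Genes that work with the members were taken from fixed lists. The 13 mitochondrially encoded subunits, which share their complexes with the members, had a median log2 fold change of 0.48 in both ventricles at 8 h. In LV 8 of 13 passed and in RV 3 of 13, all higher. Examples are mt-Co2, the copper-binding subunit of complex IV, at 22677 ± 2584 CPM (SD, n = 3) in LV at 0 h and 35093 ± 1430 at 8 h, and mt-Co1, its catalytic subunit, at 74075 ± 3200 and 107840 ± 12473. Their log2 fold changes were 0.63 (standard error 0.13, adjusted p = 0.0410) and 0.55 (0.10, 0.0261). In RV mt-Co1, mt-Co2 and mt-Co3 passed, and 5 of 13 did so with the replicate block, where 18.5% of all genes were higher. The nuclear members of the same complexes thus had lower medians than the mitochondrially encoded subunits in both ventricles, a difference between lists that was not tested.

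Of the 4 carriers, Etfa and Etfdh, which feed electrons from fatty acid oxidation into ubiquinone, fell in LV at 8 h. Etfdh went from 561 ± 33.2 to 373 ± 86.0 CPM (log2 fold change -0.58, standard error 0.16, adjusted p = 0.0806) and Etfa from 552 ± 47.9 to 404 ± 44.5 CPM (-0.45, 0.12, 0.0826). None of the 4 passed in RV. None of the 47 assembly factors passed against 0 h in either ventricle. At an unadjusted p under 0.05, 4 were higher and 1 lower in LV at 8 h (13.4% and 9.64% of all genes). None were so in RV (17.9% and 12.8% of all genes). Their medians at 8 h were 0.01 in LV and -0.21 in RV. Between ventricles at 8 h, 29 of the 47 passed as higher in LV with the block (15.4% of all genes).

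Among 16 regulators of mitochondrial biogenesis, Gabpb1, a subunit of GABP, rose in LV at 8 h from 11.1 ± 1.96 to 23.8 ± 6.38 CPM (log2 fold change 1.11, standard error 0.22, adjusted p = 0.0334). In RV it rose at 4 h (1.08, 0.22, 0.0262) and at 8 h (1.59, 0.23, 0.0033). Pprc1, a coactivator of the PGC-1 family, passed as higher in RV at 4 h (1.09, 0.26, 0.0405) and 8 h (1.48, 0.26, 0.0078). Ppargc1b, another coactivator of that family (-0.62, 0.14, 0.0525), the nuclear receptor gene Esrrb (-0.67, 0.19, 0.0914) and Polrmt, the mitochondrial RNA polymerase (-0.40, 0.12, 0.0936), fell in LV at 8 h. Esrrb also fell in RV (-0.97, 0.34, 0.0880). No other regulator passed at 4 h or 8 h against 0 h. With the replicate block the RV count at 8 h was 2 higher and 5 lower (18.5% and 14.6% of all genes).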

How the data were processed

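Total RNA of mouse LV and RV was made into directional libraries. The study's methods name an mRNA selection step and a lower limit on RNA integrity. Reads were quantified with Kallisto on GRCm38 transcripts per the labels and the study's methods, and the estimated counts and TPM of each transcript were deposited by the authors for each of 18 libraries. Here, both were summed per gene of GENCODE M21 (1259 of 111462 transcripts had no gene and stayed out), and the estimated counts were rounded. Totals were 22552581 to 46236771. Genes were filtered with filterByExpr, scaled by TMM and tested with edgeR 4.0.16 (quasi-likelihood, robust, two-sided), with Benjamini-Hochberg adjustment over all genes and a threshold of 0.1. Time comparisons used the 9 libraries of a ventricle, and comparisons between ventricles all 18. CPM rest on TMM library sizes. DESeq2 1.42.0 was an alternative, and the code was tested on simulated data.

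Groups came from the titles. Nothing in the labels says that libraries of a group came from separate hearts, so p-values measure the spread between these libraries. Pairing by number was checked as the correlation of deviations from group means. Each same-numbered pair of LV and RV correlated at 0.325 or more, as did pairs of RV 4 h and 0 h (0.111 or more), RV 8 h and 0 h (0.165) and the 8 h and 4 h libraries of each ventricle (0.327 and 0.358), but not LV pairs with 0 h (lowest 0.040 and -0.019). The numbers were taken to pair the former.

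Genes named are members that passed, isoform groups, complex II, the highest and lowest TPM of each complex, and the 5 largest between ventricles or all of 10 or fewer. Other members named, for transcript length or role, were chosen after their values were seen. Members and lists were chosen with earlier results of these data known. Promoters came from RefSeq (GRCm38.p6) for 68 member symbols, 66 of them matched by symbol. Pseudogenes of members held at most 3 counts each.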

Additional observations from a re-analysis of the deposited data

Results flagged for a closer look

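With each same-numbered LV and RV pair of a storage time as a block, the change from 0 h to 8 h differed between the ventricles for 7 members. This was a test of the difference itself with edgeR and Benjamini-Hochberg adjustment over all genes. The LV change minus the RV change on the log2 scale was 0.35 for Ndufa6 (adjusted p = 0.0635), 0.39 for Ndufa7 (0.0613), 0.45 for Ndufc2 (0.0841), 0.32 for Ndufs5 (0.0948) and 0.43 for Ndufs7 (0.0812), which belong to complex I, and 0.41 for Cox5b (0.0841) and 0.44 for Cox7b (0.0881), which belong to complex IV. Without the block none of the 7 passed. Cox5b was at 407, 445 and 512 CPM in LV at 0 h and at 479.5, 530.4 and 533 CPM at 8 h, and at 482, 420.5 and 609 CPM in RV at 0 h and at 394, 444 and 437 CPM at 8 h. It was higher at 8 h than at 0 h for each number in LV, and lower for numbers 1 and 3 in RV. The groups overlapped in both ventricles, and LV numbers are not shown to pair with 0 h. The third RV library at 8 h also had the lowest sum of cardiomyocyte markers, and without the 8 h pair of that number 12 members passed. The count was 11 without 8 h pair 2 and 5 without 0 h pair 2, and it was 0 without 0 h pair 1, 0 h pair 3 or 8 h pair 1.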

How the results depend on the processing

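Medians of the members at 8 h kept their sign under every alternative, with an LV range of 0.07 to 0.20 and an RV range of -0.26 to -0.06, while at 4 h the LV median lay between 0.01 and 0.16 and the RV median between -0.02 and 0.18. Counts of calls moved more. For LV at 8 h, DESeq2 passed 1 higher and 5 lower, the fit without mitochondrial genes 2 lower, and the fits with only the groups compared and with all libraries 0 lower. All libraries gave 3 lower for RV at 8 h, and DESeq2 passed 2 for LV at 8 h against 4 h. Leaving out libraries gave 0 to 7 higher and 0 to 5 lower in LV and 0 to 12 lower in RV at 8 h. The cause was not tested.

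The replicate block, where LV numbers are not shown to pair with 0 h, gave 11 higher and 3 lower in LV at 8 h (10.8% and 7.38% of all genes). Between ventricles the block was each same-numbered LV and RV pair of a storage time. It gave 1 member at 0 h, 1 at 4 h, 18 at 8 h, and 7 for the difference of the changes at 8 h. It changed no other count of member calls. Fits that combined the block with leaving out libraries were chosen after seeing the data. In LV at 8 h they gave 0 to 11 members higher and 0 to 8 lower. In RV they gave 0 to 1 lower at 4 h and 0 to 22 lower at 8 h, the 22 without the second 8 h library. With the block and all libraries, 6.88% and 14.6% of all genes were lower in RV at 4 h and 8 h. Between ventricles the combined fits gave 1 member each at 0 h, 0 to 3 at 4 h and 7 to 34 at 8 h. The 8 h counts were 13, 18 and 17 without 0 h pairs 1, 2 and 3, and 7, 34 and 15 without those of 8 h. For the difference at 8 h the range was 0 to 12.

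The Spearman correlation with transcript length in RV at 4 h turned to 0.23 without the second 0 h library and to 0.34 with the block and without the third, and to -0.50 without the third alone. At 8 h its sign was negative in every alternative run.

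Precision was limited by 3 libraries a group. At 8 h the 95% intervals reached beyond a 1.5-fold change for members other than the 50 in LV and 34 in RV given above.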

Other observations

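In the median, members varied less between the 8 h libraries than other genes above 100 CPM. Over the 74 members above 100 CPM the median coefficient of variation between 3 libraries was 9.81% in LV and 11.3% in RV at 8 h, against 17.2% and 26.8% for 1171 other genes above that level. For LV at 0 h the medians stood at 9.92% and 9.97%, for RV at 14.4% and 13.7%, and at 4 h 12.2% and 10.1% in LV and 13.3% and 11.5% in RV. This difference between the gene groups was not tested. Single members reached 28.2% in LV and 62.2% in RV at 8 h. The RV values at 8 h include the library that stood apart.

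The 16 members with the ETS type motif and the 51 without it both had a median log2 fold change of 0.13 in LV at 8 h, and medians of -0.07 and -0.16 in RV. For the 10 members with the YY1 type motif the LV median was 0.08 and the RV median -0.12, and for the 57 without it 0.13 and -0.14. None of these splits was tested.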
